A study of Rattus norvegicus with 10 samples.

Results

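The genes described here make cholesterol, control its synthesis, take it up, store it and export it. They were chosen as a named list of 33 genes, and every probe set whose single annotated gene symbol was on that list was kept. Of the 33, 31 were measured, through 57 probe sets, out of 14217 genes in all. Expression of Hmgcs1 and Npc1 was not analysed here, and only their promoter windows were read. Cells build cholesterol from acetyl-CoA through mevalonate, isoprenoid units, squalene and lanosterol. The transcription factors of the SREBP family switch this pathway on when sterols in the endoplasmic reticulum fall, and INSIG proteins hold them back when sterols are plentiful. In the opposite direction, the liver X receptors sense oxidised sterols and switch on the export pumps ABCA1 and ABCG1.

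The data came from the transitional epithelium of the nasal cavity, cut from sections by laser capture microdissection, in male F344/N rats. The treated group received N,N-dimethyl-p-toluidine (DMPT), an aromatic amine used to cure acrylic cements, at 120 mg/kg/day by gavage in corn oil for 5 consecutive days. The vehicle group received corn oil alone over the same 5 days. Rats of both groups were 5 to 6 weeks old at the start, and each group held 5 arrays, 1 per animal. Rats were caged in pairs, but the labels do not say which, so p-values take each array as an independent animal. The labels give no processing batch.

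Values are log2 expression after robust multi-array average (RMA) normalisation, so a difference of 1 is a doubling. Array medians lay between 8.21 and 8.35 and lower quartiles between 6.37 and 6.51. Each of the 31 genes had group means above those quartiles, between 7.57 and 12.8. Epithelial markers were bright, with Epcam at 13.59 and Cdh1 at 13.18 in the vehicle mean. The stromal collagen gene Col1a1 was also bright, at 13.30. Vehicle replicate 2 stood apart from the other vehicle arrays, and was the highest or the lowest of its group for 21 of the 31 genes. Differences are DMPT minus vehicle, values after ± are standard errors, and a gene passed when its limma adjusted p over all 31042 probe sets was under 0.05.

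After DMPT most measured steps of cholesterol synthesis were higher, from the kinase Pmvk to the last reductase, Dhcr7. By limma, 12 of 18 measured synthesis genes rose and 0 fell (15 and 0 at an unadjusted p under 0.05), by 1.39-fold to 2.16-fold, with the largest rises in Idi1, Sc5d, Cyp51 and Dhcr7. Over all 31 genes, 13 rose and 2 fell, against 7.13% of all genes higher and 6.77% lower (13.9% in either direction). The 2 that fell were Srebf1, at -0.89 ± 0.17, and Soat1, at -0.38 ± 0.093. Of the 5 SREBP regulators 0 rose, and of the 4 export genes 0 passed in either direction. Among so few genes a count of 0 is near the shares of all genes. The roles were not tested against each other. At an unadjusted limma p under 0.05, 1 regulator (Srebf2) was higher and 2 (Srebf1 and Insig2) were lower. By the same measure 1 export gene (Nr1h2) was higher and 0 lower. The share of all genes under the unadjusted threshold was not counted, and it is larger than the adjusted shares given here. Unadjusted counts, here and below, therefore have no share of all genes beside them. Vehicle and DMPT arrays did not overlap for 11 genes that were higher and 3 that were lower, against 7.58% and 6.29% of all genes. The median difference was 0.63 for synthesis, -0.25 for the SREBP regulators, 0.11 for transfer, uptake and storage, and -0.21 for export, beside -0.0052 over all 14217 genes. Without DMPT replicate 3 the number of synthesis genes that passed was 8, its lowest value over the omissions of single arrays. It was also 8 after adjustment for the RNA quality measure described next.

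**Figure D1:**
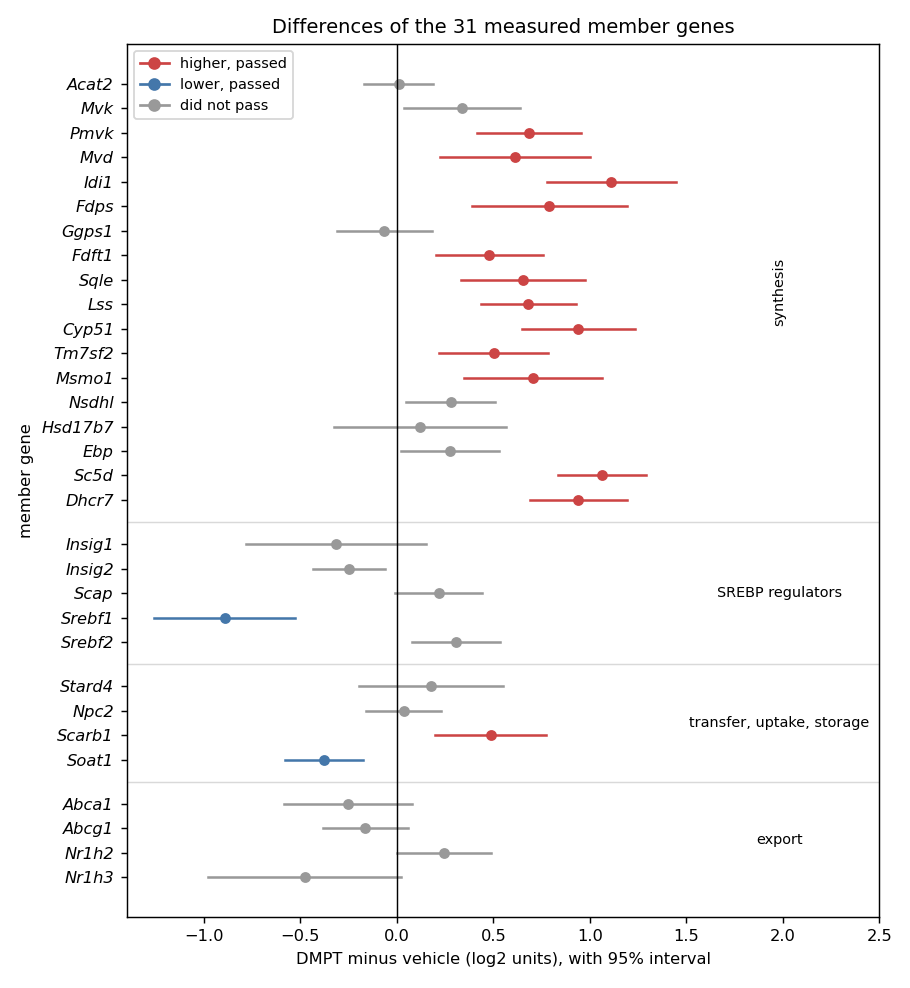
Difference between the DMPT and vehicle means (log2 units, horizontal axis) of the 31 measured genes, in pathway order within their roles, as points with 95% intervals from the limma fit. Red marks the 13 genes that rose, blue the 2 that fell and grey the 16 that did not pass; all but 1 of the red points are synthesis genes.

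Markers of other cells moved with the same comparison, in which 7.13% of all genes were higher and 6.77% lower. In marker sets this small, a count of 0 or of a single gene is near those shares. All 5 markers of dividing cells were higher, and their mean level was between 8.99 and 9.86 in vehicle arrays and between 10.4 and 10.6 after DMPT. Of 10 macrophage markers 6 rose and 0 fell (array means between 8.99 and 9.22 with vehicle, 9.41 and 9.76 after DMPT). Endothelial markers rose in 4 of 6 cases (6.16 to 7.30 against 7.37 to 8.51). Their means in vehicle replicates 2 and 4, at 6.28 and 6.16, were under every array's lower quartile, so the size of that rise is uncertain. Of 6 markers of multiciliated cells, 5 fell and 0 rose (10.5 to 11.8 against 9.18 to 10.7), and of 5 markers of sustentacular and Bowman gland cells, 4 fell and 0 rose (10.6 to 11.2 against 9.37 to 10.0). Fibroblast markers passed in 0 of 6 cases, also at an unadjusted limma p under 0.05 (10.1 to 11.01 against 9.92 to 11.05). Of 5 olfactory neuron markers Adcy3 rose and Gap43 fell (7.22 to 7.61 against 7.04 to 8.06), and of 7 epithelial markers Krt5 and Krt8 rose (12.6 to 13.1 against 13.1 to 13.2). None of these markers was listed at 0, and the dimmest of their representative probe sets, Cnga2 of olfactory neurons, had a vehicle mean of 4.52. The ratio of 3' to 5' signal of control transcripts, a sign of RNA breakdown, lay between 1.17 and 1.497 log2 units with vehicle and between 0.87 and 1.30 after DMPT. In tissue of several cell types, fewer cells of a type and less RNA per cell cannot be told apart. The part of these cell types in the results was not tested. Adjusted for the RNA ratio, Mvd, Fdps, Fdft1, Msmo1, Scarb1 and Soat1 no longer passed, with differences between 0.49 and 0.66 for the rises and -0.35 for Soat1.

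The first enzymes of the pathway lead from acetyl-CoA to isopentenyl diphosphate, the building block of isoprenoids. Acat2, the cytosolic thiolase that joins the first acetyl groups, had vehicle values between 10.35 and 10.58 and DMPT values between 10.37 and 10.55. Its difference was 0.0093 ± 0.081 with a 95% interval of -0.17 to 0.19, the smallest of the synthesis genes in size. Mvk phosphorylates mevalonate, and its difference of 0.34 ± 0.14 did not pass (adjusted p = 0.15). Without vehicle replicate 2, its highest vehicle array, the difference of Mvk was 0.46 (adjusted p = 0.00871). Its other probe sets differed by 0.48 and 0.51 and did not pass over all arrays. The latter passed without DMPT replicate 2, at 0.64, or without vehicle replicate 4, and the mean of its probe sets passed at 0.44 (adjusted p = 0.00495).

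Pmvk adds the next phosphate, and it was 10.32, 11.03, 10.50, 10.66 and 10.64 in vehicle replicates 1 to 5 and 11.34, 11.40, 11.26, 11.36 and 11.22 in DMPT replicates 1 to 5. Every DMPT array lay above every vehicle array, and the DMPT arrays were packed within a narrow band. Pmvk rose by 0.69 ± 0.12, or 1.61-fold (adjusted p = 0.0047). Mvd, the decarboxylase that yields isopentenyl diphosphate, was 7.44, 8.20, 7.28, 8.19 and 8.06 with vehicle and 8.44, 8.49, 8.44, 8.47 and 8.37 after DMPT. The groups did not overlap, but vehicle replicates 1 and 3 were far below the other vehicle arrays. Mvd rose by 0.61 ± 0.18 (adjusted p = 0.0477), and it passed in only 2 of 10 omissions of an array, those of vehicle replicates 2 and 4 (differences over all 10 of 0.47 to 0.70).

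Among the brightest probe sets of each gene, the isoprenoid steps held the largest rise of the list. Idi1, the isomerase that makes dimethylallyl diphosphate, was 9.83, 9.28, 9.65, 9.99 and 10.19 in the vehicle arrays and 10.92, 10.95, 11.06, 10.86 and 10.71 in the DMPT arrays. The lowest DMPT array stood 0.53 log2 units above the highest vehicle array. The rise was 1.11 ± 0.15, or 2.16-fold (adjusted p = 0.000978), and a second probe set rose by 0.76 ± 0.099. Fdps joins these units into farnesyl diphosphate, the last precursor shared by sterols and other isoprenoids. It was 12.09, 11.22, 11.97, 12.32 and 12.25 with vehicle and 12.81, 12.85, 12.87, 12.71 and 12.56 after DMPT, without overlap. Vehicle replicate 2 was the lowest array; the rise of Fdps was 0.79 ± 0.18 (adjusted p = 0.018) and 0.60 without that array, where it still passed.

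Ggps1 leads out of the sterol branch, to the geranylgeranyl groups that anchor small GTPases in membranes. Over all arrays it was the only measured synthesis gene with a difference below 0, at -0.065 ± 0.11 (95% interval -0.31 to 0.18), which was 0.0031 without vehicle replicate 3. Its vehicle and DMPT values overlapped. Its other probe sets differed by -0.17 and -0.37, and 0 of the 3 passed, also at an unadjusted limma p under 0.05. Whether Ggps1 differed from its neighbours Idi1 and Fdps in response was not tested.

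The 3 enzymes from farnesyl diphosphate to lanosterol, the first sterol, rose in their brightest probe sets. Fdft1, squalene synthase and the committed step to sterols, was 10.10, 10.48, 10.12, 10.62 and 10.59 with vehicle and 10.73, 11.01, 10.99, 10.82 and 10.77 after DMPT. The groups were separated by 0.11, and the rise of 0.48 ± 0.13 (adjusted p = 0.031) did not pass without DMPT replicates 2, 3, 4 or 5 or vehicle replicates 1 or 3 in turn. A second probe set of Fdft1 was 9.52, 9.91, 9.31, 10.07 and 9.59 with vehicle and 9.98, 10.10, 10.17, 9.94 and 9.83 after DMPT. Its groups overlapped, and the difference of 0.32 did not pass (adjusted p = 0.182). Sqle, the squalene epoxidase and a rate-controlling enzyme, was 9.99, 9.79, 9.74, 10.36 and 10.26 with vehicle and 10.75, 10.81, 10.93, 10.50 and 10.41 after DMPT. DMPT replicates 4 and 5 lay just above vehicle replicates 4 and 5, and the groups did not overlap. Sqle rose by 0.65 ± 0.15 (adjusted p = 0.0151), and passed without each array in turn. Lss, which folds the epoxide into lanosterol, was 9.91, 9.47, 9.81, 9.58 and 9.94 with vehicle and 10.38, 10.60, 10.45, 10.41 and 10.29 after DMPT. All DMPT arrays were above all vehicle arrays, with a rise of 0.68 ± 0.11 (adjusted p = 0.00266). The second probe set of Lss was 9.12, 8.04, 9.08, 9.19 and 9.07 with vehicle and 9.42, 9.45, 9.36, 9.74 and 9.75 after DMPT. It differed by 0.64, also without overlap, and did not pass (adjusted p = 0.065). Its vehicle arrays had an SD of 0.48, against 0.21 in the first probe set (n = 5), and it passed without the low vehicle replicate 2, at 0.43.

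**Figure D2:**
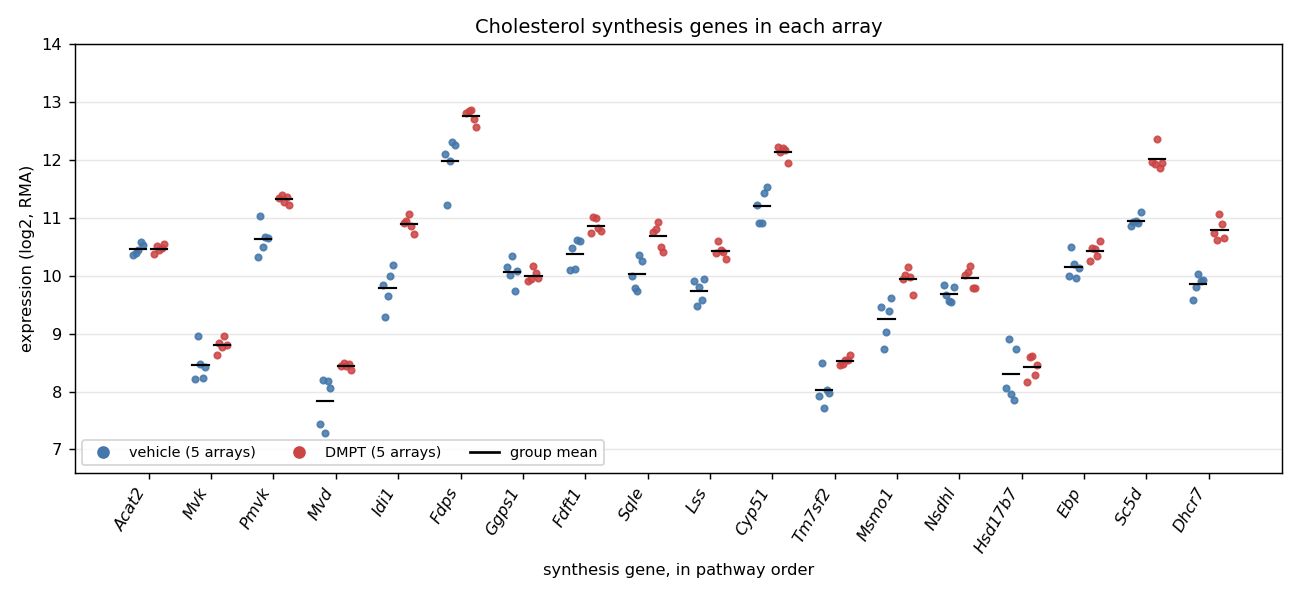
Expression (log2, vertical axis) of the 18 measured synthesis genes in pathway order, with 1 point per array, vehicle in blue and DMPT in red, and lines at the group means. The red points lie wholly above the blue points in 11 genes, among them Idi1, Cyp51, Sc5d and Dhcr7, and overlap them in the other 7.

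Lanosterol is turned into cholesterol by removing methyl groups and moving or reducing double bonds. Cyp51, the P450 that takes off the first methyl group, was 11.22, 10.90, 10.91, 11.43 and 11.53 with vehicle and 12.22, 12.14, 12.21, 12.17 and 11.95 after DMPT. The gap between the groups was 0.42, and Cyp51 rose by 0.94 ± 0.13, or 1.92-fold (adjusted p = 0.00117). A second probe set rose by 0.99 ± 0.13. Tm7sf2, the reductase that follows, was 7.93, 8.49, 7.71, 8.03 and 7.97 with vehicle and 8.45, 8.48, 8.54, 8.54 and 8.63 after DMPT. Vehicle replicate 2 was level with the DMPT arrays and the other vehicle arrays were below them. Tm7sf2 rose by 0.50 ± 0.13 (adjusted p = 0.0284); without vehicle replicate 2 the difference was 0.62, and 8 of the other 9 omissions ended the call, that of DMPT replicate 1 being the exception.

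Msmo1 oxidises the remaining paired methyl groups, and it was 9.47, 8.74, 9.03, 9.38 and 9.61 with vehicle and 9.95, 10.01, 10.15, 9.99 and 9.66 after DMPT. DMPT replicate 5 was only 0.047 above the highest vehicle array. Msmo1 rose by 0.70 ± 0.16 (adjusted p = 0.0178), and without DMPT replicate 3 the difference was 0.66 (adjusted p = 0.051). Nsdhl and Hsd17b7 complete the removal of those groups. The brightest probe set of Nsdhl, with 9.84, 9.67, 9.56, 9.55 and 9.80 in the vehicle and 10.02, 10.06, 10.16, 9.79 and 9.78 in the DMPT arrays, overlapped between groups and did not pass, at 0.28 ± 0.11 (adjusted p = 0.121). The second, with 8.34, 9.05, 8.65, 8.32 and 8.49 in the vehicle and 9.04, 8.99, 9.15, 9.00 and 8.97 in the DMPT arrays, was higher at 0.46 ± 0.13 (adjusted p = 0.0472), a call that ended in 9 of 10 omissions, all but that of vehicle replicate 2. With the mean of its probe sets Nsdhl passed, at 0.37 (adjusted p = 0.0194). Hsd17b7 did not pass, at 0.12 ± 0.20 and, in a dimmer probe set, 0.47 ± 0.16. The isomerase gene Ebp, with vehicle values between 9.95 and 10.50, differed by 0.27 ± 0.12 (adjusted p = 0.167). Without vehicle replicate 2 the difference of Ebp was 0.36 and passed (adjusted p = 0.0296).

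The last steps of the pathway rose with the smallest p-values among the representative probe sets, which are the brightest of each gene. Sc5d, the desaturase that forms the diene of the sterol ring, was 10.86, 10.92, 10.95, 10.91 and 11.10 with vehicle and 11.97, 11.93, 12.35, 11.86 and 11.95 after DMPT. The groups were 0.77 apart, the widest gap among the representative probe sets. The rise was 1.06 ± 0.11, or 2.09-fold (adjusted p = 0.000117). A second probe set of Sc5d was 9.66, 8.07, 9.29, 9.12 and 9.39 with vehicle and 11.27, 11.09, 11.25, 11.14 and 10.99 after DMPT. It rose by 2.05 ± 0.24, or 4.13-fold, with vehicle replicate 2 far below the rest, and by 1.79 without that array. The third rose by 0.89 ± 0.14, so all 3 rose, by 0.89 to 2.05. Dhcr7, the reductase that makes cholesterol itself, was 9.58, 9.81, 10.03, 9.91 and 9.93 with vehicle and 10.73, 10.62, 11.06, 10.89 and 10.66 after DMPT. Every DMPT array was at least 0.59 above every vehicle array, and Dhcr7 rose by 0.94 ± 0.12, or 1.92-fold (adjusted p = 0.000474).

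Of the 19 genes with several probe sets, 9 were synthesis genes, and 27 of the 30 synthesis probe sets had a difference above 0. Of those 30, 17 passed upward and 0 downward, against 5.37% and 5.74% of all probe sets (11.1% in either direction). The arrays of both groups did not overlap in 16 of them, all higher (all probe sets: 5.82% higher, 5.21% lower). The 3 below 0 all belonged to Ggps1. By array, the mean of the 18 genes relative to the vehicle mean was between -0.12 and 0.17 with vehicle and between 0.47 and 0.67 after DMPT. This mean is made of the same values as the calls. The mean of the SREBP regulators was also without overlap, in the other direction. It was between -0.070 and 0.11 with vehicle and between -0.26 and -0.13 after DMPT. For transfer, uptake and storage and for export the array means overlapped between groups. Of the 12 that rose, Pmvk, Idi1, Fdps, Sqle, Lss, Cyp51, Sc5d and Dhcr7 passed without each of the 10 arrays in turn.

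**Figure D3:**
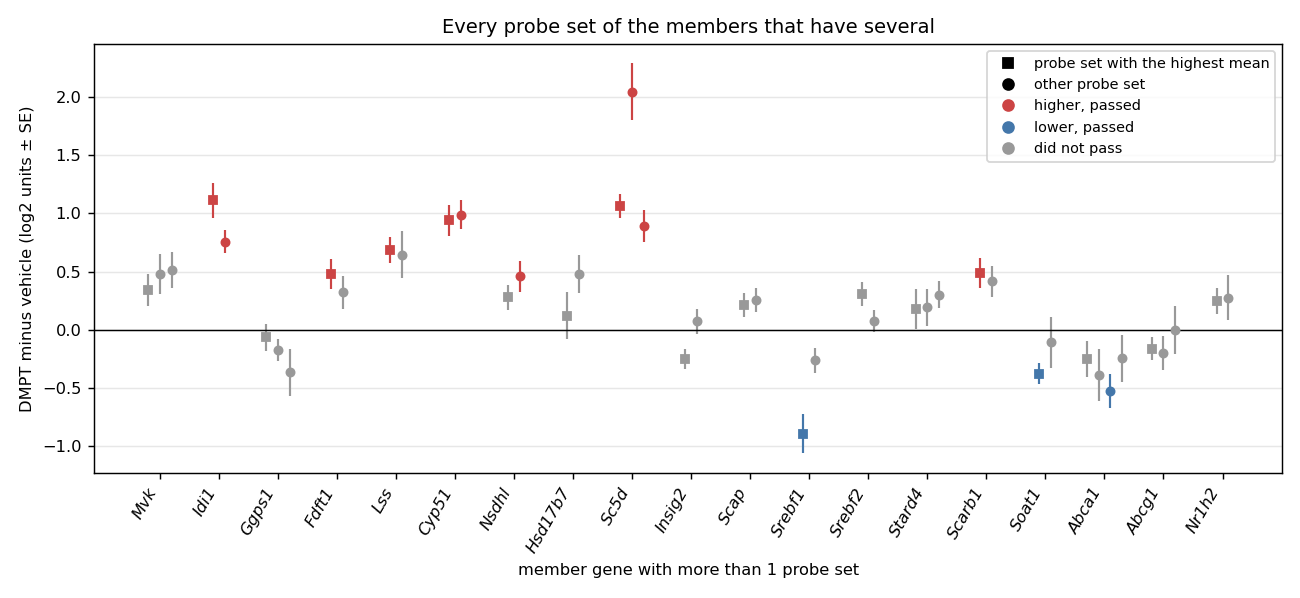
Difference between the DMPT and vehicle means (log2 units ± SE, vertical axis) for every probe set of the 19 genes that have more than 1, squares marking the brightest probe set. The 3 probe sets of Sc5d are all above 0, from 0.89 to 2.05, and the 3 of Ggps1 all below it. The probe sets of Fdft1, Lss, Nsdhl, Srebf1, Scarb1, Soat1 and Abca1 differ in whether they passed.

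Promoters of these genes were searched for short motifs as a description, with no test. SREBP proteins are known to act beside the factors NF-Y, which binds CCAAT, and Sp1, which binds GGGCGG. RefSeq windows (build GRCr8) from 250 bases before to 50 after the gene start were searched on both strands, and 27 of the 33 listed genes had one, with 2 windows for Srebf1. The windows of the 4 synthesis genes with the largest rises, and both of Srebf1, are given 5′ to 3′ in the gene's direction, with CCAAT or its complement and GGGCGG or its complement in capitals.
Idi1 at chr17:66547475-66547774, minus strand: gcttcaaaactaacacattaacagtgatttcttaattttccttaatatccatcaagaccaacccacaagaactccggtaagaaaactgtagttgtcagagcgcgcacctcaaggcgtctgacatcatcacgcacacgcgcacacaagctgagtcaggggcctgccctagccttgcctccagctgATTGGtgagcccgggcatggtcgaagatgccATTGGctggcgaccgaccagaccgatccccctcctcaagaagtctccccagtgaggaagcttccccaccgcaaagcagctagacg
Sc5d at chr8:51538228-51538527, minus strand: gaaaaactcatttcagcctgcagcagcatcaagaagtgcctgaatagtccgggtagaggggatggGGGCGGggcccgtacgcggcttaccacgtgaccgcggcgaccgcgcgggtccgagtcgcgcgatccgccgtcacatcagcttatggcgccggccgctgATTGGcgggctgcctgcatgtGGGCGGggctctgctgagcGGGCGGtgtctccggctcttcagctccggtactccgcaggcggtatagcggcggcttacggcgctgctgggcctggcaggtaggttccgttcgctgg
Cyp51 at chr4:30991443-30991742, plus strand: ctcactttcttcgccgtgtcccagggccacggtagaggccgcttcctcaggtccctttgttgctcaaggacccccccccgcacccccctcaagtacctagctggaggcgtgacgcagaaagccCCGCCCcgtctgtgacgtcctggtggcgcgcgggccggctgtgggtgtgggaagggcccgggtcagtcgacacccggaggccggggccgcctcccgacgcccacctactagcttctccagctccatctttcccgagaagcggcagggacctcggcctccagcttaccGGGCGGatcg
Dhcr7 at chr1:208444184-208444483, plus strand: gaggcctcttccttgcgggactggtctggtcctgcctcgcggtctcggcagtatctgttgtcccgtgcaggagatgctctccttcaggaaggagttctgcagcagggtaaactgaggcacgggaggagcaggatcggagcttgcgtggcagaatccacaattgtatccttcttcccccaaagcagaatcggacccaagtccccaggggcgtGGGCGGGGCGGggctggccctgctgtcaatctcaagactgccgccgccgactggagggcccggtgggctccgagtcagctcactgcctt
Srebf1, first window at chr10:45529115-45529414, minus strand: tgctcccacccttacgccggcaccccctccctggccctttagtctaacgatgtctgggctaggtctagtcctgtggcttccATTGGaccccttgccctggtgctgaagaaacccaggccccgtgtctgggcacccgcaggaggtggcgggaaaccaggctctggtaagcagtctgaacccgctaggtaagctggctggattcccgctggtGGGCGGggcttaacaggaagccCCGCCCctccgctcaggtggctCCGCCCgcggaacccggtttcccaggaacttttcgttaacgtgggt
Srebf1, second window at chr10:45518961-45519260, minus strand: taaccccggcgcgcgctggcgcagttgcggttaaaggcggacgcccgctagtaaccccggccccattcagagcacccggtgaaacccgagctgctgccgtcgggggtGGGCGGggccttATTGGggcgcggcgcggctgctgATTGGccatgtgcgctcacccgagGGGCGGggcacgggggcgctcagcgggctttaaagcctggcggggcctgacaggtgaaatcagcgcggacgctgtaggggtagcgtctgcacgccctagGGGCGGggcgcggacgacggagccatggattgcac

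CCAAT was found in 13 of 16 windows of synthesis genes (81.2%, Hmgcs1 included) and in 37.5% of all 33465 windows. GGGCGG was also in 13 of 16, against 33.1%; in protein-coding genes alone the shares were 38.0% for CCAAT and 41.8% for GGGCGG. Idi1 held CCAAT 2 times and GGGCGG 0 times, Sc5d held them 1 and 3 times, and Cyp51 and Dhcr7 held GGGCGG 2 times and CCAAT 0 times. In Dhcr7 the 2 matches of GGGCGG overlap. Among measured synthesis genes with a window, CCAAT was present in 7 of the 9 that rose and in 5 of the 6 that did not pass, and GGGCGG in 8 of the 9 and in 4 of the 6. The sterol element TCACNCCAC was in 0 of the 28 windows and in 1.12% of all windows; this says only that those letters are not in these windows. In the export genes CCAAT was in 0 of 3 windows and GGGCGG in 1 of 3. SREBP regulators, of which 0 passed as higher, held CCAAT in 5 of 6 windows and GGGCGG in 5 of 6. For transfer, uptake and storage genes the counts were 2 of 3 and 3 of 3 (Npc1 included). Both windows of Srebf1 held CCAAT and GGGCGG. These matches describe letters in a window and do not mark bound sites.

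Of the 5 SREBP regulators 0 passed as higher and 1 as lower, beside 7.13% and 6.77% of all genes. Srebf1, which encodes the SREBP forms tied mainly to fatty acid synthesis, was 10.54, 11.59, 10.79, 10.85 and 10.93 with vehicle and 9.83, 10.16, 10.12, 10.02 and 10.09 after DMPT. Every DMPT array was below every vehicle array, and vehicle replicate 2 was the highest. Srebf1 fell by 0.89 ± 0.17, or 1.86-fold (adjusted p = 0.00601), and it fell by 0.73 without vehicle replicate 2, where it still passed. A dimmer probe set of Srebf1, with 7.52, 7.56, 7.87, 7.70 and 7.91 in the vehicle and 7.49, 7.26, 7.51, 7.40 and 7.59 in the DMPT arrays, overlapped between groups and did not pass, at -0.26 ± 0.11 (adjusted p = 0.143). Srebf2 encodes the SREBP form tied mainly to cholesterol synthesis. It was 11.49, 11.46, 11.41, 11.70 and 11.67 with vehicle and 11.90, 11.62, 11.75, 12.00 and 12.00 after DMPT. The groups overlapped through DMPT replicate 2, and the difference of 0.31 ± 0.10 did not pass (adjusted p = 0.0852, 95% interval 0.079 to 0.53). Its dim second probe set differed by 0.075.

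Insig1, which retains SREBP in the endoplasmic reticulum and is itself a known SREBP target, was 11.35, 10.36, 11.44, 11.72 and 11.43 with vehicle and 11.09, 11.11, 10.77, 10.88 and 10.87 after DMPT. Vehicle replicate 2 was below all other arrays, and the remaining vehicle arrays were above all DMPT arrays. The difference over all arrays was -0.32 ± 0.21 and did not pass (adjusted p = 0.412). Without vehicle replicate 2 it was -0.54 and passed as lower (adjusted p = 0.00791), and with array weights, which gave that array 0.21, it was -0.50 and passed (adjusted p = 0.0253). Insig2, a related retention protein, was 10.21, 10.30, 10.29, 10.22 and 10.22 with vehicle and 10.15, 9.98, 9.82, 10.10 and 9.97 after DMPT. Every DMPT array was below every vehicle array, by the small gap of 0.063, and the difference of -0.25 ± 0.086 did not pass (adjusted p = 0.0896). A second probe set, with 9.04, 9.21, 8.97, 9.28 and 9.26 in the vehicle and 9.11, 9.48, 9.16, 9.34 and 9.03 in the DMPT arrays, overlapped between groups and differed by 0.071. Scap, the escort that carries SREBP to the Golgi, differed by 0.22 ± 0.10 and in its other probe set by 0.26 ± 0.10, and neither passed.

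Of the 4 measured genes of transfer, uptake and storage, 1 rose and 1 fell, beside 7.13% and 6.77% of all genes. In so few genes, a single call each way is near those shares. Scarb1, a receptor that takes cholesterol from high-density lipoprotein, was 8.76, 8.92, 8.96, 8.86 and 9.35 with vehicle and 9.12, 9.41, 9.60, 9.61 and 9.53 after DMPT. Vehicle replicate 5 overlapped the DMPT arrays and the other vehicle arrays did not. Scarb1 rose by 0.49 ± 0.13 (adjusted p = 0.0349), but did not pass in 8 of 10 omissions of an array, all but those of DMPT replicate 1 and vehicle replicate 5, with differences of 0.44 to 0.58. Its second probe set was 7.52, 6.87, 7.26, 7.35 and 7.31 with vehicle and 7.82, 7.44, 7.53, 7.92 and 7.66 after DMPT. Those groups overlapped as well, and the difference of 0.41 did not pass (adjusted p = 0.0717). Stard4, a cytosolic carrier of sterols, did not pass in any of 3 probe sets, with differences of 0.18, 0.19 and 0.30. Npc2, the lysosomal sterol-binding protein, was bright and close between groups, at 12.04 and 12.08, with a 95% interval of -0.16 to 0.23.

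Soat1 encodes the enzyme that esterifies cholesterol for storage in droplets. It was 9.91, 9.95, 9.97, 9.63 and 10.03 with vehicle and 9.46, 9.47, 9.58, 9.59 and 9.50 after DMPT. The groups did not overlap, though vehicle replicate 4 was only 0.040 above the highest DMPT array. Soat1 fell by 0.38 ± 0.093, or 1.30-fold (adjusted p = 0.0234). The call ended without DMPT replicates 1, 2 or 5 or vehicle replicates 3 or 5 in turn, with differences of -0.44 to -0.34. A second probe set of Soat1, with 8.70, 7.78, 9.14, 8.87 and 9.03 in the vehicle and 8.58, 8.64, 8.62, 8.42 and 8.71 in the DMPT arrays, had its lowest value in vehicle replicate 2 and differed by -0.11 ± 0.22. Without that array it differed by -0.34 and did not pass (adjusted p = 0.0559).

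Of the 4 export genes 0 passed in the brightest probe set, against 13.9% of all genes, and 1 further probe set was lower. Abca1, the pump that loads cholesterol onto lipid-poor apolipoproteins, had 4 probe sets, all with differences below 0. The brightest was 10.84, 10.35, 10.92, 10.62 and 10.83 with vehicle and 10.23, 10.13, 10.46, 10.74 and 10.74 after DMPT. DMPT replicates 1 and 2 lay below every vehicle array and the other 3 within the vehicle range, and the difference of -0.25 ± 0.15 did not pass (adjusted p = 0.348). The third in brightness was 10.31, 10.88, 10.92, 10.35 and 10.34 with vehicle and 9.85, 10.03, 10.08, 9.94 and 10.28 after DMPT, without overlap. This probe set was lower by 0.53 ± 0.15 (adjusted p = 0.0392), and the call ended in 6 of 10 omissions: those of vehicle replicates 2 and 3 and of DMPT replicates 1 to 4. The remaining probe sets differed by -0.39 and -0.25 and did not pass. Without vehicle replicate 2 they differed by -0.60, which passed as lower (adjusted p = 0.03), and by -0.42, which did not. Abcg1, which exports cholesterol to high-density lipoprotein, differed by -0.16 ± 0.10 (95% interval -0.38 to 0.056), with 0 of 3 probe sets called, also at an unadjusted limma p under 0.05.

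The liver X receptor genes did not pass. Nr1h2, the receptor found in most tissues, differed by 0.24 ± 0.11 (adjusted p = 0.201). Nr1h3, the receptor of liver and macrophages, was 8.00, 8.71, 8.15, 7.47 and 7.91 with vehicle and 7.03, 7.88, 7.39, 7.97 and 7.58 after DMPT. Its arrays were scattered in both groups, and the difference of -0.48 ± 0.23 had a 95% interval of -0.98 to 0.022, which includes 0. Macrophage markers rose in the same arrays, as given above.

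**Figure D4:**
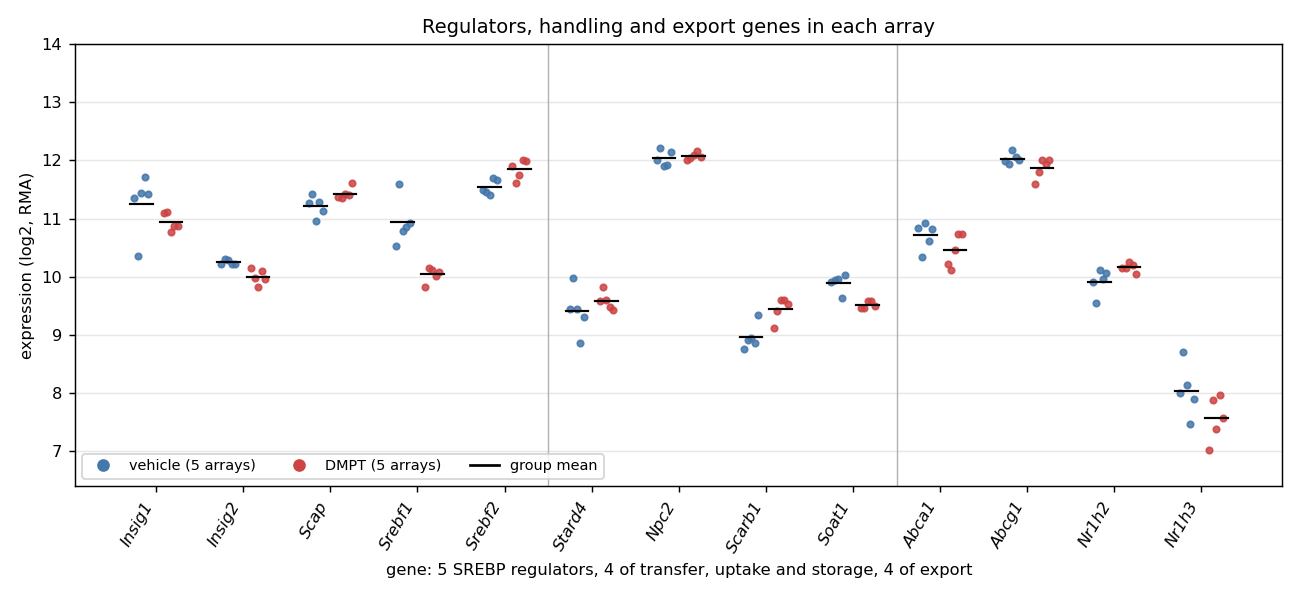
Expression (log2, vertical axis) of the 13 measured genes outside synthesis, with 1 point per array, vehicle in blue and DMPT in red, lines at the group means, and vertical lines between the roles. Srebf1, Insig2 and Soat1 are lower in all DMPT arrays, Scarb1 is higher with 1 vehicle array overlapping, and 1 low vehicle array of Insig1 sits below its DMPT arrays.

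Other genes of cholesterol handling were read from a list of 53, of which 41 were measured. Of these, 7 rose and 2 fell, or 17.1% and 4.88%, beside 7.13% and 6.77% of all genes. The median difference was 0.036. The rises were spread over synthesis side branches, sterol-regulated degradation, uptake and lysosomal release, and oxysterol metabolism, and of 10 genes of export and lipoproteins 0 passed by limma (1 higher and 1 lower at an unadjusted p under 0.05). Lrp8, a receptor of the low-density lipoprotein receptor family that binds apolipoprotein E, was 7.18, 8.32, 7.35, 6.63 and 7.33 with vehicle and 9.70, 9.55, 9.83, 9.23 and 9.04 after DMPT. All DMPT arrays were above all vehicle arrays. Lrp8 rose by 2.11 ± 0.27, or 4.31-fold (adjusted p = 0.000546), more than any of the 31 chosen genes in its representative probe set.

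Lipa, the lysosomal lipase that frees cholesterol from lipoprotein esters, was 10.47, 10.80, 10.63, 10.13 and 10.47 with vehicle and 11.07, 11.19, 11.21, 11.26 and 11.16 after DMPT. It rose by 0.68 ± 0.12 without overlap (adjusted p = 0.00402). Macrophages also hold much Lipa, and their markers rose as given above; the part of those cells was not tested. Tmem97, a sterol-regulated membrane protein of the uptake pathway, rose by 0.50 ± 0.14 in its brightest probe set and by 0.78 ± 0.16 in the other. The first call ended in 9 of 10 omissions, all but that of vehicle replicate 2, and the second held in all 10. Erlin1, which helps to degrade the sterol-sensing enzymes of the pathway, rose by 0.42 ± 0.087 (adjusted p = 0.0104).

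The acetoacetyl-CoA enzymes outside the main chain also rose, Aacs by 0.49 ± 0.11 (adjusted p = 0.0179) and the mitochondrial thiolase gene Acat1 by 0.36 ± 0.091 (adjusted p = 0.0276). Aacs did not pass without DMPT replicate 3, nor Acat1 without DMPT replicates 1, 2 or 5. Nceh1, an ester hydrolase that works against storage, fell by 0.47 ± 0.14 (adjusted p = 0.0459), and that call too held only when vehicle replicate 2 was the array left out. Oxysterol genes went both ways. Cyp7b1, which hydroxylates oxysterols, was 7.22, 7.69, 7.20, 6.41 and 7.79 with vehicle and 6.23, 6.27, 5.78, 5.36 and 6.03 after DMPT. It fell by 1.33 ± 0.26, or 2.51-fold (adjusted p = 0.00685), to a DMPT mean of 5.93. That mean is under every array's lower quartile, so the size of the fall is uncertain. Cyp39a1, another oxysterol hydroxylase, rose by 0.44 ± 0.12 (adjusted p = 0.0387), and the call ended in 6 of 10 omissions, those of vehicle replicates 4 and 5 and of DMPT replicates 2 to 5.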

How the data were processed

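The authors deposited log2 values for each probe set; the submitters' processing notes name RMA, and the labels state neither its software version nor a filter. Per the labels' protocols, RNA from captured epithelium was amplified, labelled with biotin and hybridised, 1 array per animal. The number of arrays limits the precision. Of 31099 probe sets, 57 control probe sets were set aside, and 20826 of the rest had 1 gene symbol in the platform annotation, 436 several and 9780 none. Each gene's representative was its brightest probe set, by the mean of the 10 arrays.

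DMPT and vehicle arrays were fitted in R 4.3.3 by limma 3.58.1, using lmFit and eBayes, over all 31042 probe sets, with Benjamini-Hochberg adjusted p-values (threshold 0.05) and 95% intervals from the moderated test. The fit code was also run on simulated data with independent normal noise, which does not test the calls given here. The authors named the ORIOGEN software in the series' design text; it was not run. The genes and lists were chosen with earlier results of these data known. All measured genes of the list are named, with array values for those that passed and for probe sets that disagree; of the other cholesterol genes, those that passed are named. Alternatives were median centring, a filter on the dimmest 25% of probe sets, trended and robust variances, array weights, the mean 3' minus 5' difference of the GAPDH and beta-actin controls as a covariate, a replicate block, the mean of a gene's probe sets, and leaving out each array. Promoter sequences are from RefSeq, GRCr8; no gene coordinates of the array are given because its build is not stated in the labels.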

Additional observations from a re-analysis of the deposited data

Results flagged for a closer look

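In 80 sets of 5 arrays, 1 array stood far from the other 4 in 4 sets, by Dixon's ratio at its 95% critical value of 0.71; chance gives about 1 in 20. Sc5d was 12.35 in DMPT replicate 3, with the other DMPT arrays between 11.86 and 11.97. Insig1 was 10.36 in vehicle replicate 2, with the others between 11.35 and 11.72. Scap was 11.61 in DMPT replicate 5, with the others between 11.35 and 11.43. Acat1 was 11.27 in vehicle replicate 2, with the others between 11.52 and 11.57.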

How the results depend on the processing

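The 13 rises and 2 falls among the 31 genes were the same genes under median centring, without the dimmest 25% of probe sets and with trended, robust variances. Adjusted for the 3' to 5' RNA ratio 8 rose and 1 fell: Mvd, Fdps, Fdft1, Msmo1, Scarb1 and Soat1 no longer passed, with Fdps at 0.66 and an adjusted p of 0.0923. With the mean of a gene's probe sets 15 rose, with Mvk and Nsdhl gained, and 1 fell, with Soat1 lost. With array weights 15 rose, with Mvk and Ebp gained, and 3 fell, with Insig1 gained. Without each array in turn 8 to 14 rose (8 without DMPT replicate 3) and 1 to 3 fell, and of the other cholesterol genes 4 to 8 rose and 1 or 2 fell. Median centring left 1 fall among those other genes. The difference of Acat2 was -0.023 with the RNA covariate and ran from -0.017 to 0.039 without each array in turn; that of Ggps1 ran from -0.15 to 0.0031. The labels name no animal shared by a replicate number, so the main fit took the arrays as unpaired. Deviations of same-numbered arrays correlated between -0.067 and 0.23. Whether the numbers mark a shared batch cannot be told from these correlations. With the number as a block 12 of the 31 genes rose and 1 fell, with Sqle at an adjusted p of 0.0511 and Soat1 of 0.0623, and among the other cholesterol genes 4 rose and 1 fell. For 2 of the 5 numbers the best correlated array of the other group had the same number. The cause of these changes was not tested.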
